A study of Mus musculus with 6 samples.

Results

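The cytochrome P450 family 2 (Cyp2) genes were examined in mouse liver. They were taken as every protein-coding gene whose symbol is Cyp2 followed by a subfamily letter and a number, which gave 42 of the 24501 genes in the table, in 11 subfamilies. The study sequenced liver RNA of 6 male C57BL/6J mice, 3 in each of 2 groups, with 1 library from each mouse. Every mouse carried floxed alleles of Gata4 (Gata4fl/fl), the gene of a zinc finger transcription factor, and was given a Western diet for 3 weeks. Control mice received an empty AAV8, an adeno-associated virus with a strong preference for liver. Gata4LKO mice received AAV8-Tbg-Cre, in which the Tbg promoter drives Cre recombinase in hepatocytes, so that other liver cells keep their Gata4 alleles. Virus was injected at 8 weeks of age, and the mice were 11 weeks old and had fasted for 6 hours at death. Another label puts death 7 days after injection, which does not match these ages. The comparison asks how expression differs when Cre reaches hepatocytes with floxed Gata4.

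Cytochromes P450 are heme enzymes of the endoplasmic reticulum that insert oxygen into lipophilic molecules, with electrons that reach most of them from NADPH through P450 oxidoreductase (Por). In liver, family 2 enzymes oxidise drugs, environmental chemicals, steroid hormones and polyunsaturated fatty acids. Many of the mouse genes lie in clusters of near-identical copies, several differ between the sexes or along the liver lobule, and some are induced by chemicals through the nuclear receptors CAR (Nr1i3) and PXR (Nr1i2).

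The libraries held 33274223 to 37390345 reads in the genes of the table, and levels below are normalised read counts, which adjust for library size and not for gene length. The tissue label was borne out, since the lowest value of any of 9 hepatocyte markers in any library was 14028 normalised reads. Gata4 had 704, 637 and 546 normalised reads in Control replicates 1, 2 and 3 and 867, 848 and 895 in Gata4LKO replicates 1, 2 and 3. Its log2 fold change (Gata4LKO minus Control, as everywhere below) was 0.47, with an adjusted p of 0.0641 (limma, Benjamini-Hochberg) and an exact two-sided permutation p of 0.1, the smallest that 3 against 3 libraries allow. Total Gata4 reads therefore give no check of the knockout label, and the group is called the Gata4LKO-labelled libraries. A count over the whole gene does not separate deleted from retained exons. Nor does it separate reads of hepatocytes from those of other liver cells, which keep their alleles. The cause of the higher count was not tested. Markers of other liver cells stood higher in those libraries. The 8 sinusoidal endothelial markers summed to 4691 to 5873 among the controls and 7790 to 9355 among the Gata4LKO-labelled libraries. Of these 8, 6 rose, against 1.13% of all genes tested. The 8 Kupffer cell and macrophage markers summed to 2985 to 6888 and 7979 to 17257, with 0 past the test. For the 8 stellate cell markers the sums were 4747 to 11795 and 13440 to 16070, also with 0 past the test. The fitted difference was at least 2-fold higher for 8 Kupffer cell and 5 stellate cell markers, against 5% of all genes tested. An unadjusted limma p was under 0.05 for 8 and 7 of them, against 22.4% of all. The 8 lymphocyte markers summed to 105 to 512 and 461 to 655 and the 7 bile duct markers to 1786 to 2135 and 1493 to 2182, both overlapping, and no listed marker was at 0 in any library. The 9 hepatocyte markers summed to 3706160 to 4767000 among the controls and 2864160 to 3320930 among the Gata4LKO-labelled libraries, and 1 of them, Serpina1a, fell. Alb weighs most in this sum, with 2113350 of the 3706160 in Control replicate 1. The log2 fold change was negative for 7 of the 9, with a lowest value of -0.59, and positive for Apob (0.24) and Fga (0.04). In bulk tissue, fewer hepatocytes, less RNA per hepatocyte and changes of single marker genes cannot be told apart.

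Of the 42 Cyp2 genes, 34 had a mean of at least 10 normalised reads over the 6 libraries and were tested with limma on log2(normalised count + 1), with p-values adjusted over all 14385 genes that had such a mean. Cyp2c29, Cyp2c55, Cyp2a12, Cyp2d22 and Cyp2g1 fell in the Gata4LKO-labelled libraries, and 0 of the 34 rose. The 5 genes are 14.7% of those tested in the family, where 0.932% of all genes tested fell and 1.13% rose. Of the 9 hepatocyte markers, 1 fell. Cyp2c55 cleared the filter through the controls alone, and without it 4 of 33 fell. At an unadjusted p under 0.05 there were 12 genes of the 34, against 22.4% of all genes tested. The fitted difference was at least 2-fold in the lower direction for 4 of the 34, against 1.47% of all, and in the higher direction for 4, against 5% of all.

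The median log2 fold change was -0.19 over the 34 Cyp2 genes, -0.42 over the 9 hepatocyte markers and -0.0083 over all genes tested. Log2 fold changes were negative for 22 of the 34, 7 of the 9 and 51.5% of all genes tested. A difference between the Cyp2 genes and other hepatocyte genes was not tested. All 3 Gata4LKO-labelled libraries lay below all 3 controls for 9 of the 34 genes and 5 of the 9 markers. This held for 13.4% of all genes tested. They lay above all controls for Cyp2a4 and Cyp2e1, where this held for 15% of all genes tested, and the 2 directions together hold 28.3% of all. The edgeR quasi-likelihood test and DESeq2 on the reads recovered from the normalised values, each with Benjamini-Hochberg adjustment, called the same 5 genes, and the authors' deposited table also has 5 of the family past 0.05. Of all genes tested, edgeR called 2.06%, as limma did, and DESeq2 9.48% (5.9% higher and 3.58% lower). With the summed level of non-hepatocyte markers as a covariate, which itself does not overlap between the groups, 0 of the family passed, and 2 of all genes tested passed. In that fit the log2 values were -2.09 for Cyp2c29, -4.62 for Cyp2c55, -0.81 for Cyp2a12, -0.79 for Cyp2d22 and -4.11 for Cyp2g1. Their limma adjusted p-values were 0.133 to 0.319. Because the covariate does not overlap between the groups, the fit separates it from the group label only through its variation among the 3 libraries within each group. These values therefore do not give the part of cell composition in these differences, which was not tested. In limma without the intensity trend of the variance, 0 of the family and 25 of all genes tested passed. Without Control replicate 3, Gata4LKO replicate 2 or Gata4LKO replicate 3, 1 of the family passed, and without Gata4LKO replicate 1, 2 passed. Among other P450 families, 0 of 6 tested Cyp3a genes passed, while of 14 tested Cyp4 genes 1 rose and 1 fell. The differences between families were not tested.

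**Figure D1:**
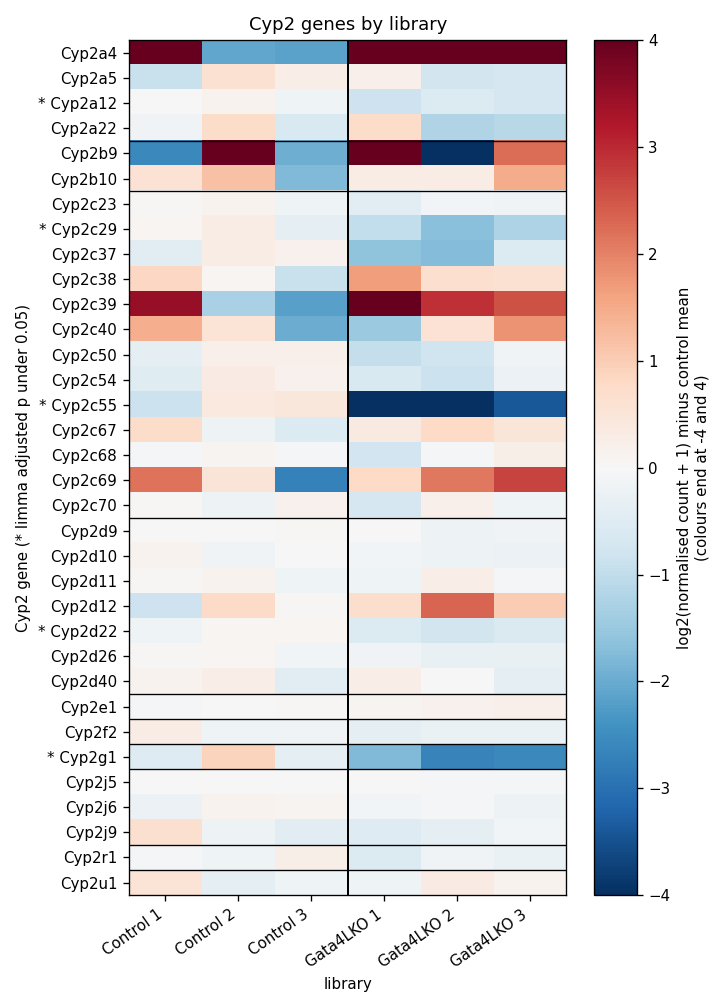
Heat map of the 34 tested Cyp2 genes (rows, grouped by subfamily) in the 6 libraries (columns). Colour is log2(normalised count + 1) minus the control mean, ends at -4 and 4, and an asterisk marks a gene past the limma test. Cyp2c55 and Cyp2g1 are blue in all 3 Gata4LKO-labelled libraries, while Cyp2a4, Cyp2b9 and Cyp2c39 differ widely among the controls.

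Close copies limit what a count of one gene can say, so coding sequences of the reference annotation (GENCODE M21, on the mm10 assembly) were compared in all 861 pairs of members. Identity was at least 95% in 9 pairs, and highest between Cyp2a4 and Cyp2a5, with 98.4% and 23 differences over 1482 coding bases. Of the different 50-base stretches in the transcripts of a gene, 38.0% were also found in another gene for Cyp2a4, 37.0% for Cyp2a5, 52.8% for Cyp2c67 and 60.3% for Cyp2c40. Among the genes that fell, this share was 20.1% for Cyp2a12, 5.11% for Cyp2g1, 4.25% for Cyp2c29, 4.13% for Cyp2d22 and 0.514% for Cyp2c55. How reads that match several genes were counted is not given in the sources used here. A value for a close copy is therefore uncertain, and sums over copies are given beside it. A stretch of coding bases 596 to 655 is shown because Cyp2a4 and Cyp2a5, whose shares differed widely between libraries, can be told from each other there at 4 positions, in capitals.
Cyp2a4: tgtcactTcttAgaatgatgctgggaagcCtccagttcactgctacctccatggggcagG
Cyp2a5: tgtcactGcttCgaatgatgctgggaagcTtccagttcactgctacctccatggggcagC
Between Cyp2c50 and Cyp2c54, which share 95.2% of their coding bases, coding bases 791 to 850 hold 11 of the 70 differences, again in capitals.
Cyp2c50: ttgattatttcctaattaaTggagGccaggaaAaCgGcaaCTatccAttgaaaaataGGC
Cyp2c54: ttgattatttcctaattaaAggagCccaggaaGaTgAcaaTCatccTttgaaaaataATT
The capitals mark where a read can be assigned to one gene of the pair, and a read that covers only lower-case bases matches both.

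**Figure D2:**
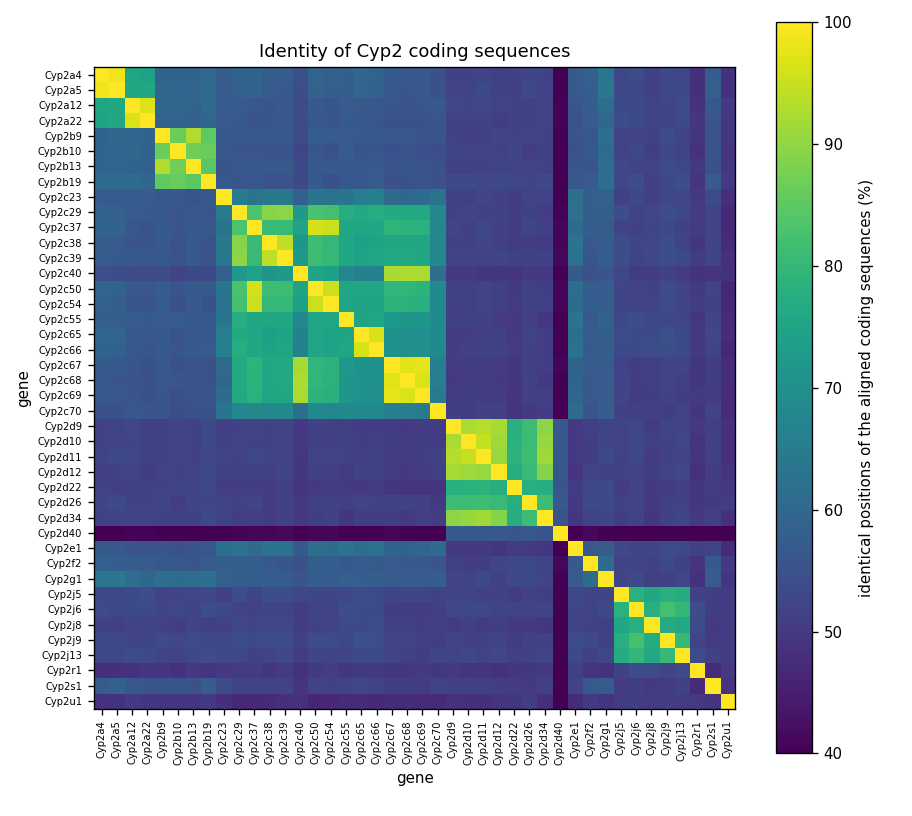
Matrix of the share of identical positions (%) in pairwise aligned coding sequences of the 42 Cyp2 genes, in order of subfamily on both axes. Yellow off the diagonal marks close copies, such as Cyp2a4 with Cyp2a5 (98.4%), Cyp2c67 with Cyp2c69 (97.7%) and Cyp2c37 with Cyp2c50 (96.1%). The dark line is Cyp2d40, whose annotated coding length is 1014 bases.

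The Cyp2c subfamily, whose enzymes make epoxides and hydroxy acids from arachidonic acid and oxidise many drugs, has 15 genes on chromosome 19 (chr19:39007019-44029208, mm10). Its summed level was 122809, 140440 and 117555 normalised reads in Control replicates 1, 2 and 3. In Gata4LKO replicates 1, 2 and 3 it was 77678, 80007 and 91664. The groups did not overlap, and the ratio of the means, 126934 ± 11987 and 83116 ± 7493 (SD, n = 3), was 0.655. Within the subfamily, log2 fold changes had both signs.

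Cyp2c29 (chr19:39269405-39330713, plus strand), an abundant pericentral arachidonic acid epoxygenase that CAR and PXR ligands induce, fell. Control replicates 1, 2 and 3 had 48966, 56640 and 35967 normalised reads of it, against 23197, 14659 and 19626 in Gata4LKO replicates 1, 2 and 3. Every Gata4LKO-labelled library was below the lowest control. The log2 fold change was -1.30 (SE 0.21, limma with Benjamini-Hochberg adjustment, adjusted p = 0.0312). The call was lost without Control replicate 1 (adjusted p = 0.0839 in limma), Gata4LKO replicate 2 (0.0749) or Gata4LKO replicate 3 (0.117).

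Cyp2c55 (chr19:39007019-39042693, plus strand), another CAR- and PXR-inducible gene of the subfamily, was low in control livers and near 0 in the Gata4LKO-labelled libraries. It had 31.9, 76.9 and 81.3 normalised reads in the controls and 2.05, 1.004 and 4.72 in Gata4LKO replicates 1, 2 and 3. Even the lowest control stood well above the highest of these. The log2 fold change was -4.19 (SE 0.53, limma with Benjamini-Hochberg adjustment, adjusted p = 0.0163). It rests on 192 recovered reads in the controls against 8, a ratio of 24.2 after library scaling with an exact 95% interval of 12.05 to 56.9 that covers counting error only. Without Control replicate 3 the adjusted p was 0.0600 in limma.

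Cyp2c37, Cyp2c50 and Cyp2c54 are copies at least 95% identical in coding sequence, lie side by side and encode enzymes that oxidise arachidonic acid. Cyp2c37 had 5915, 9999 and 9251 normalised reads in the controls and 2698, 2476 and 5642 in Gata4LKO replicates 1, 2 and 3. The groups did not overlap, but the log2 fold change of -1.29 (SE 0.33) missed the threshold, with a limma adjusted p of 0.0823. Cyp2c50 had 16776, 25643 and 25513 in the controls and 11514, 12851 and 20205 (log2 fold change -0.63, limma adjusted p = 0.184). The values of Cyp2c54 were 5459, 9516 and 8491 and then 5018, 4241 and 6541 (log2 fold change -0.55, limma adjusted p = 0.208). In both, Control replicate 1 lay within the range of the Gata4LKO-labelled libraries. The sum of the 3 genes had a ratio of 0.611. Cyp2c37 supplied 21.01%, 22.1% and 21.4% of that sum in the controls and 14.0%, 12.7% and 17.4% in Gata4LKO replicates 1, 2 and 3.

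Cyp2c39, which encodes a retinoic acid hydroxylase, and its neighbour Cyp2c38, an arachidonic acid epoxygenase, had higher means in the Gata4LKO-labelled libraries without passing the test. Cyp2c39 had 1911, 67.5 and 36.4 normalised reads in Control replicates 1, 2 and 3 and 4072, 1286 and 995 in Gata4LKO replicates 1, 2 and 3. Control replicate 1 was above 2 of the Gata4LKO-labelled libraries, and the log2 fold change was 3.35 (SE 1.36, limma adjusted p = 0.201). Without that control it was 5.10 (limma adjusted p = 0.0243), without Control replicate 2 it was 2.697 (0.348) and without Control replicate 3 it was 2.26 (0.434). Both edgeR and DESeq2 gave 1.66, with adjusted p-values of 0.485 and 0.623. For Cyp2c38 the values were 1381, 813 and 418 and then 2477, 1249 and 1177 (log2 fold change 0.98, limma adjusted p = 0.245), again with Control replicate 1 inside the other group's range.

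Cyp2c67, Cyp2c68 and Cyp2c69 form a further set of copies and none passed the test. Cyp2c67 had 6683, 3428 and 2743 normalised reads in the controls and 5135, 6937 and 5563 in Gata4LKO replicates 1, 2 and 3 (log2 fold change 0.55, limma adjusted p = 0.326). Cyp2c68 had 1834, 2048 and 1847 and then 1132, 1811 and 2243 (log2 fold change -0.20, limma adjusted p = 0.656). At the low end, Cyp2c69 had 27.8, 8.31 and 0 and then 10.2, 27.1 and 40.6 (log2 fold change 1.87, limma adjusted p = 0.381). Leaving out Control replicate 3 gave 0.53, leaving out Control replicate 1 gave 2.95, and DESeq2 gave 1.12. All 3 genes overlapped between the groups, and summed with the related Cyp2c40 they gave a ratio of 1.23.

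**Figure D3:**
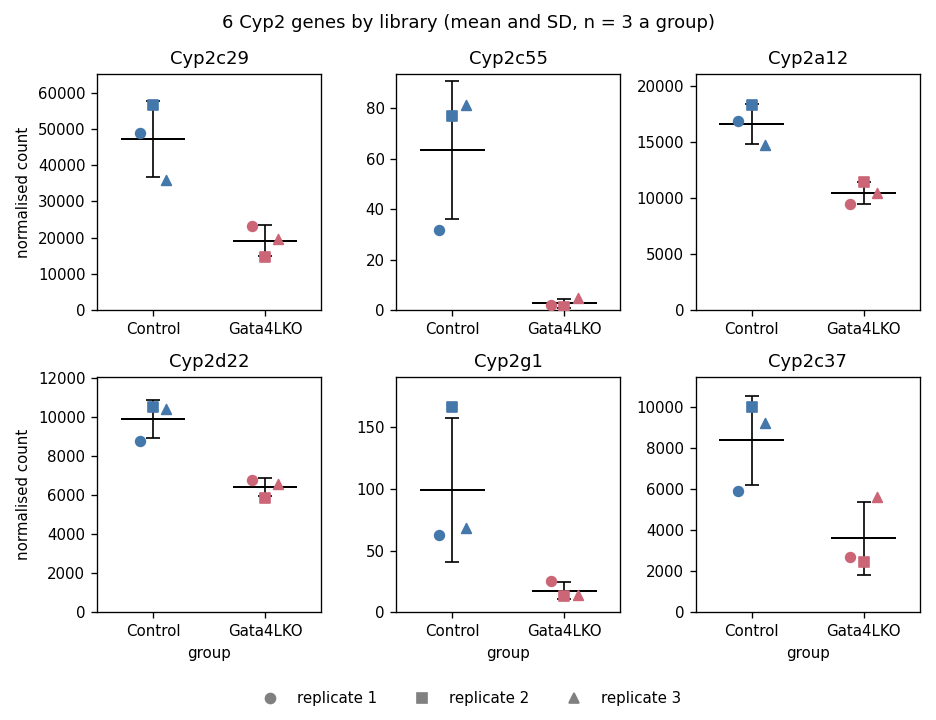
Normalised counts (y axis from 0) of the 5 Cyp2 genes that fell and of Cyp2c37 in Control and Gata4LKO libraries. Each point is a library, its shape gives the replicate number, and bars are the mean and SD of 3. In all 6 panels the highest Gata4LKO-labelled library is below the lowest control, as for Cyp2c37 with 5642 against 5915.

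The Cyp2a genes, in a cluster on chromosome 7 with the Cyp2b, Cyp2f, Cyp2g and Cyp2s genes, encode steroid and coumarin hydroxylases. Cyp2a12 (chr7:27029081-27037375, plus strand), a hydroxylase of testosterone and bile acids, fell. It had 16857, 18255 and 14681 normalised reads in the controls and 9401, 11417 and 10422 in Gata4LKO replicates 1, 2 and 3, with no overlap. The log2 fold change was -0.67 (SE 0.11, limma with Benjamini-Hochberg adjustment, adjusted p = 0.0312). Its copy Cyp2a22, 97.0% identical in coding sequence, had 32.9, 61.3 and 23.4 and then 60.3, 15.1 and 16.1, and Cyp2a12 made up at least 99.4% of the sum of the pair. Leaving out any library other than Control replicate 2 raised the limma adjusted p of Cyp2a12 above the threshold, to between 0.0544 and 0.123.

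Cyp2a4, a testosterone hydroxylase gene that is higher in female than in male mouse liver, spread widely among the controls. It had 2132 normalised reads in Control replicate 1 but 25.97 and 25.2 in Control replicates 2 and 3. In Gata4LKO replicates 1, 2 and 3 it had 8319, 8125 and 3634, all above the highest control. The log2 fold change of 5.77 (SE 1.56) did not pass, with a limma adjusted p of 0.0916. DESeq2 and edgeR on the recovered reads both gave 3.20, with adjusted p-values of 0.26 and 0.241. In limma it was 7.88 without Control replicate 1 (adjusted p = 0.00142), 4.73 without Control replicate 2 (0.15) and 4.71 without Control replicate 3 (0.221). Cyp2a5, the coumarin hydroxylase gene, had 8457, 23780 and 18564 in the controls and 17671, 9237 and 9741 in Gata4LKO replicates 1, 2 and 3. These overlapped, and the log2 fold change was -0.41 (SE 0.40, limma adjusted p = 0.595), and Control replicate 1 was the lowest of all 6. The sum of this pair was 17661 ± 6657 and 18909 ± 6448 (SD, n = 3), a ratio of 1.07. Cyp2a4 made up 20.1%, 0.109% and 0.136% of that sum in the controls and 32.0%, 46.8% and 27.2% in Gata4LKO replicates 1, 2 and 3. The 250 bases before the RefSeq starts of this pair (GRCm38.p6, Cyp2a4 at chr7:26306942-26307191 and Cyp2a5 at chr7:26835089-26835338, both plus strand) are shown because the shares of the pair differed widely while their promoters are nearly the same. They are identical at 245 of 251 aligned columns, and capitals mark the 4 substitutions and 2 end gaps.
Cyp2a4 promoter: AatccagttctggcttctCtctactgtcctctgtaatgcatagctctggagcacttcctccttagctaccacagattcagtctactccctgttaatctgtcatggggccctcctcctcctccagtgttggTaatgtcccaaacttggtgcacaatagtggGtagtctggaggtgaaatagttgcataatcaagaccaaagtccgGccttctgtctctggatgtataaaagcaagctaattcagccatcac
Cyp2a5 promoter: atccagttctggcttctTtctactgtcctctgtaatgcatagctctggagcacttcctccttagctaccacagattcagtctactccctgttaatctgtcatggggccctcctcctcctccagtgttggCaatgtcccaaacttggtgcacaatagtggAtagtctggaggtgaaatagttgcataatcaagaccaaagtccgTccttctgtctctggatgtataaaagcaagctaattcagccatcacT

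The Cyp2b genes, which in mouse include the CAR target Cyp2b10 and the female-biased Cyp2b9, were low and uneven. Cyp2b9 had 2.06, 412 and 3.74 normalised reads in Control replicates 1, 2 and 3 and 340, 0 and 84.1 in Gata4LKO replicates 1, 2 and 3. Single libraries of both groups were high, and the log2 fold change was 0.76 (SE 2.49, limma adjusted p = 0.894). Its sign turned when Control replicate 1 (-0.53), Control replicate 3 (-0.21) or Gata4LKO replicate 1 (-0.98) was left out. Together with Cyp2a4, Cyp2c39 and Cyp2c40, it was 1 of 4 members whose highest control was at least 10 times the lowest, leaving aside Cyp2c69, with a control at 0.

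**Figure D4:**
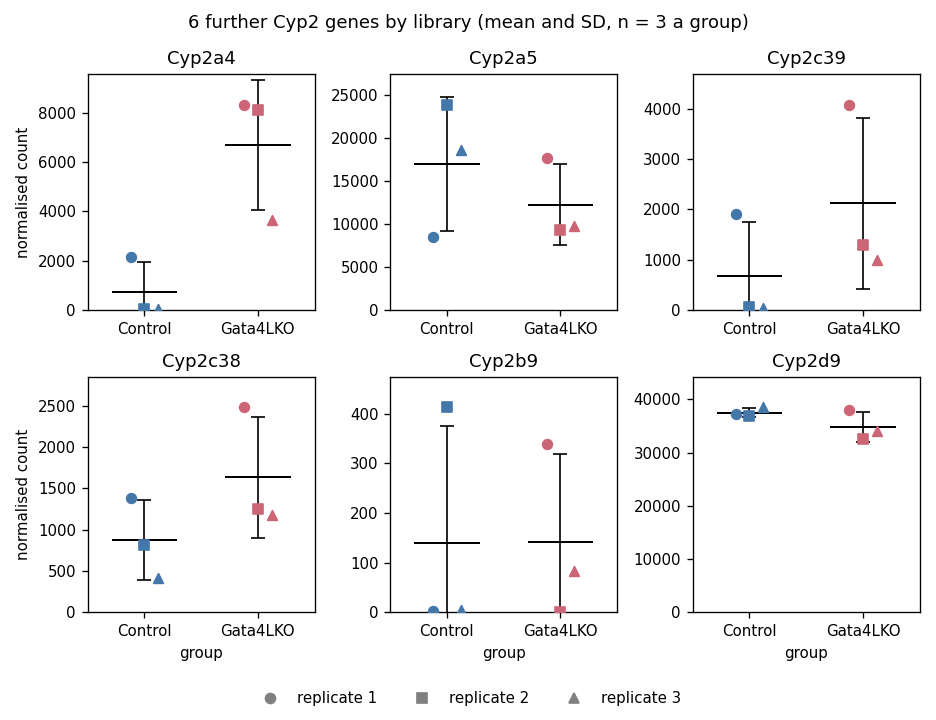
Normalised counts (y axis from 0) of 6 further Cyp2 genes in Control and Gata4LKO libraries. Points are libraries, shapes give replicate numbers, and bars are the mean and SD of 3. Control replicate 1 stands apart from the other controls for Cyp2a4 (2132) and Cyp2c39 (1911), while Cyp2d9 lies between 32555 and 38491 in all 6 libraries.

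Cyp2g1 (chr7:26808892-26821205, plus strand), known chiefly from the olfactory mucosa, fell from a low level. It had 62.8, 166 and 68.2 normalised reads in the controls and 25.6, 13.0 and 14.2 in Gata4LKO replicates 1, 2 and 3. The groups did not overlap, and the log2 fold change was -2.34 (SE 0.43, limma with Benjamini-Hochberg adjustment, adjusted p = 0.0444). The recovered reads were 294 against 53, a ratio of 5.60 after library scaling, and single controls had 61, 160 and 73 of them. The call was lost without any library but Control replicate 2, with limma adjusted p-values of 0.0633 to 0.153. It was also lost when only genes with a mean of at least 50 were tested, a filter that Cyp2g1 passes with a mean of 58.3. Cyp2f2, which oxidises naphthalene and is periportal in liver, had 55990, 40669 and 41673 in the controls and 34444, 38278 and 37847. The groups did not overlap, but the log2 fold change of -0.31 (SE 0.14) had a limma adjusted p of 0.247. Cyp2s1 was not tested, with 8.23, 12.5 and 10.3 and then 0, 9.03 and 14.2.

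The Cyp2d genes (chr15:82370527-82794294, 8 genes) include the drug-metabolising Cyp2d22, which fell. Cyp2d22 (chr15:82370527-82380260, minus strand) had 8788, 10484 and 10401 normalised reads in the controls and 6772, 5873 and 6577 in Gata4LKO replicates 1, 2 and 3, with no overlap. Its log2 fold change was -0.62 (SE 0.10, limma with Benjamini-Hochberg adjustment, adjusted p = 0.0285). The call was lost without Control replicate 3 or any one of the Gata4LKO-labelled libraries, with limma adjusted p-values of 0.0539 to 0.107. Cyp2d9, a male-biased testosterone hydroxylase and the subfamily's most counted gene, had 37217, 36827 and 38491 and then 37948, 32555 and 34079. These overlapped, and the log2 fold change was -0.11 (SE 0.09, limma adjusted p = 0.545). The low Cyp2d12 had 11.3, 36.4 and 21.5 and then 34.8, 107 and 43.5 (log2 fold change 1.35, limma adjusted p = 0.188), with 1 control inside the range of the other group.

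Cyp2e1 (chr7:140763739-140774987, plus strand), the pericentral enzyme that oxidises ethanol and acetaminophen, was the most abundant member. Per kilobase of exon it averaged 158557 normalised reads over the controls, followed by Cyp2f2 with 22771, Cyp2d26 with 16199, Cyp2c29 with 15417 and Cyp2d9 with 14113. Over the Gata4LKO-labelled libraries the per-kilobase mean of Cyp2e1 was 177563, and Cyp2f2 with 18201, Cyp2d26 with 13659 and Cyp2d9 with 13115 came next. Cyp2c29 had 6260 there, below Cyp2j5 with 8760, Cyp2c70 with 8182 and Cyp2d10 with 8159. Control replicates 1, 2 and 3 had 332314, 340521 and 353667 normalised reads of Cyp2e1, against 372622, 385405 and 391513 in Gata4LKO replicates 1, 2 and 3. All 3 of the latter were higher, but the log2 fold change of 0.16 (SE 0.18) had a limma adjusted p of 0.654. That SE includes the intensity trend of the variance, while the pooled SD of the log2 values within groups was 0.041. The adjusted p was 0.394 in edgeR and 0.156 in DESeq2. Cyp2j5, an arachidonic acid epoxygenase, varied little, with 20809, 20951 and 21558 and then 20808, 20638 and 20180 (log2 fold change -0.04, limma adjusted p = 0.798). The vitamin D hydroxylase gene Cyp2r1 had 425, 386 and 509 and then 301, 401 and 367 (log2 fold change -0.31, limma adjusted p = 0.269). Cyp2u1, whose enzyme hydroxylates long-chain fatty acids, had 2295, 1198 and 1378 and then 1383, 1960 and 1730 (log2 fold change 0.10, limma adjusted p = 0.847). Both overlapped between the groups.

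The other 10 tested members, Cyp2j6, Cyp2j9, Cyp2b10, Cyp2d10, Cyp2d11, Cyp2d26, Cyp2d40, Cyp2c23, Cyp2c40 and Cyp2c70, had log2 fold changes of -0.33 to 0.68 and limma adjusted p-values of at least 0.178. Of these, Cyp2d26 alone did not overlap between the groups. The 8 untested members, Cyp2b13, Cyp2b19, Cyp2c65, Cyp2c66, Cyp2d34, Cyp2j8, Cyp2j13 and Cyp2s1, had means of 0.33 to 9.03 normalised reads and no value above 20.6. Cyp2j13 and Cyp2c66 had 0 reads in all 3 controls.

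Summed by subfamily, the ratio of the Gata4LKO mean to the Control mean was lowest for Cyp2g (0.178) and Cyp2c (0.655). It was 0.799 for Cyp2f, 0.809 for Cyp2r, 0.856 for Cyp2a, 0.866 for Cyp2d and 0.962 for Cyp2j. The untested Cyp2s had a ratio of 0.749, and those above 1 were 1.04 for Cyp2u, 1.12 for Cyp2e and 1.14 for Cyp2b. Single libraries set the size and direction of the Cyp2b ratio: its log2 value of 0.19 became 1.97 without Control replicate 2, and -0.14, -0.34 and -0.31 without Control replicate 1, Control replicate 3 and Gata4LKO replicate 1. Groups did not overlap for Cyp2c, Cyp2d, Cyp2f, Cyp2g and Cyp2j, all lower, and for Cyp2e, higher. Of these, Cyp2e, Cyp2f and Cyp2g hold 1 gene each. The Cyp2j gap was narrow, with 24063 in the lowest control and 23846 in the highest Gata4LKO-labelled library. Among single genes tested, 28.3% did not overlap, and no such share was computed for sums. All 42 genes took 1.84% to 1.92% of the reads in every library. Their total was 669805 ± 13054 normalised reads for Control and 639317 ± 8416 for Gata4LKO (SD, n = 3), a ratio of 0.954. Without Cyp2e1 it was 327638 ± 16334 and 256137 ± 5037, a ratio of 0.782, and Cyp2e1 supplied 49.7% to 53.2% of the family's normalised reads among controls and 58.9% to 60.6% among the Gata4LKO-labelled libraries.

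**Figure D5:**
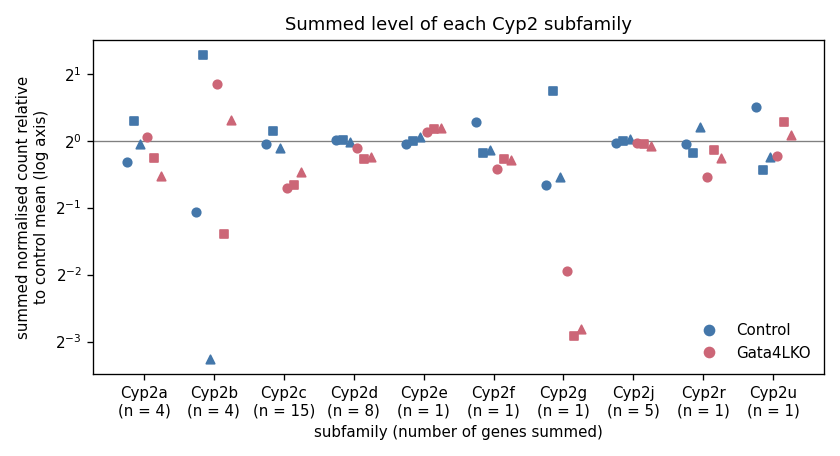
Summed normalised count of each Cyp2 subfamily in each library, relative to the mean of the controls (log axis), for 10 of the 11 subfamilies. Blue points are Control and red points Gata4LKO libraries, and n is the number of genes summed. Cyp2s, with a library at 0, is not drawn. The red points lie below all blue points for Cyp2c, Cyp2d, Cyp2f, Cyp2g and, narrowly, Cyp2j, and above them for Cyp2e.

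Promoter sequences were at hand for 35 of the 42 genes (37 promoters, 250 bases before the RefSeq start, GRCm38.p6). Those of 3 of the genes that fell are shown, since GATA4 binds GATA sequences. Cyp2d22 and Cyp2g1 had no entry. The promoters were searched on both strands for GATA letters (GATA after A or T and before A or G) and forkhead letters (TGTTTAC or TGTTTGC), which are in capitals, and overlapping matches were counted. Cyp2c29 (chr19:39286835-39287084, at a RefSeq start downstream of the GENCODE gene start) held 4 GATA matches. Cyp2c55 (chr19:39006769-39007018) held 1 GATA and 1 forkhead match, and Cyp2a12 (chr7:27028840-27029089) held 2 GATA matches. All are printed from the plus strand.
Cyp2c29 promoter: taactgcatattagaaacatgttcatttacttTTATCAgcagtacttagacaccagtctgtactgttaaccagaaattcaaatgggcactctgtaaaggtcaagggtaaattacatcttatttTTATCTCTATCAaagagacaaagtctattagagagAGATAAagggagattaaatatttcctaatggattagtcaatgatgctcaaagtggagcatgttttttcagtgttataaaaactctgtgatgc
Cyp2c55 promoter: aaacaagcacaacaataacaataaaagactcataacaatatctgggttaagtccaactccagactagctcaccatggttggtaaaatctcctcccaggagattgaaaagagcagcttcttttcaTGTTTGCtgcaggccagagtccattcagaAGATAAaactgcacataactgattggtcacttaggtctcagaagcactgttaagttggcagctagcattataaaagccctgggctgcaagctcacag
Cyp2a12 promoter: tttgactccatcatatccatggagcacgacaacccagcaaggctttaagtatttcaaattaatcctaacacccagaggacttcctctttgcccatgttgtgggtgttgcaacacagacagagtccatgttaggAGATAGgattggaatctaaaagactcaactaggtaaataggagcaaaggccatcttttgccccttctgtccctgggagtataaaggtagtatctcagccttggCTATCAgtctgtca
GATA letters were present in 21 of the 37 Cyp2 promoters (56.8%) and in 26.5% of all 32851 promoters of that length. Among members that did not pass the test, matches ranged from 0, as for Cyp2a5 and Cyp2d9, to 3 for Cyp2c67 and 5 for Cyp2c50. Some of those of Cyp2c50 overlap. Cyp2c38, with a higher mean in the Gata4LKO-labelled libraries, held 2 GATA matches and 1 forkhead match. The 2 promoters of Cyp2c39, also with a higher mean there, held 2 and 3 GATA matches and 1 forkhead match each. Whether matches go with the direction of change was not tested. Forkhead letters were in 13.5% and 7.29%, HNF4 letters (AAAGTCC) in 29.7% and 3.58%, and STAT letters (TTC, any 3 bases, then GAA) in 0.0% and 7.02%. Copies share their letters, the median GC content was 47.2% in the Cyp2 promoters and 52.4% in all, and a match is a description of the letters and not a site of binding.

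Genes that serve or control Cyp2 enzymes mostly did not pass the test. Of 7 electron transfer genes, 0 passed, and for Por the difference on the log2 scale was -0.06, at an adjusted p of 0.897 in limma. Of 12 genes of heme synthesis and breakdown 1 rose, Cpox, an enzyme of heme synthesis, with 6551, 6128 and 5729 normalised reads in the controls and 10706, 9097 and 10239 (log2 fold change 0.71, limma adjusted p = 0.016). Among 22 regulators of Cyp2 genes, the clock-controlled factor Dbp fell, with 7081, 7563 and 7606 and then 3929, 5221 and 3825 (log2 fold change -0.79, limma adjusted p = 0.0285), and 0 rose. The CAR gene Nr1i3 had a log2 fold change of 0.05, the PXR gene Nr1i2 -0.02 and Hnf4a -0.18, none past the test. Of the 22, 4 were lower without overlap between the groups, against 13.4% of all genes tested. These were Dbp, Foxa2 (log2 fold change -0.94, limma adjusted p = 0.0964), Cebpa (-0.42, 0.0721) and Tef (-0.33, 0.0883). Higher without overlap were 2, Foxa1 (0.52, 0.0891) and Ppara (0.35, 0.124), against 15% of all. Of 12 other tested CAR- and PXR-responsive genes, the transporter Abcc3 rose (log2 fold change 0.59) and the carboxylesterase Ces2a fell (-0.86). None of 9 growth hormone and sex bias regulators, 10 male-biased and 4 tested female-biased genes outside Cyp2 passed. In limma, 4 of the 9, 4 of the 10 and 1 of the 4 had an unadjusted p under 0.05, against 22.4% of all genes tested. The regulators Cish and Bcl6 differed by -2.78 and 2.04 on the log2 scale, at adjusted p-values of 0.0775 and 0.204 in limma. Cish did not overlap between the groups, while Bcl6 did. Of 14 pericentral genes outside Cyp2, Slc13a3, Tbx3 and Aldh3a2 rose and 0 fell, and of 13 periportal genes Aldh1b1 and Gls2 fell and 0 rose. Of all genes tested, 1.13% rose and 0.932% fell. The log2 fold change was negative for 7 of the 14 pericentral genes and for 13 of the 13 periportal genes. Pericentral Cyp1a2 had -0.80 (limma adjusted p = 0.0721). A shift between zones was not tested.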

How the data were processed

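Per the labels' protocols, libraries were made from TRIzol-extracted liver RNA with a KAPA stranded kit after mRNA capture. Per the submitters' processing notes, FastQC, STAR 2.6.0c, DESeq2 and the mm10 build were used. Which counter, strand setting and annotation they used is not given in the sources used here, and reads of overlapping antisense genes may be included. The authors deposited normalised counts, a signal scale of gene counts divided by size factors, and a table of log2 fold changes and p-values from their own comparison. In all 6 libraries, 100% of values lay within 0.1 of a whole multiple of a library's step, which gave whole reads.

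Here limma 3.58.1 (R 4.3.3) was fitted with an intensity trend to log2(normalised count + 1) of genes with a mean of at least 10, Control against Gata4LKO, two-sided, with Benjamini-Hochberg adjustment at 0.05. edgeR 4.0.16 and DESeq2 1.42.0 on recovered reads, other scalings, filters and pseudocounts, and each library left out were alternatives. The fit was tested on simulated data. Replicate numbers follow accession order, and titles give each mouse its own number.

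Named were genes past the test, the highest mean in each subfamily, the 6 largest changes each way, and copies at least 95% identical, in coding rather than protein sequence. The members and lists were chosen with earlier results of these data known, and the motifs, promoter length and printed stretches after values were seen.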

Additional observations from a re-analysis of the deposited data

How the results depend on the processing

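The 5 genes that fell kept a negative log2 fold change under every alternative that could be fitted for them, 18 each and 17 for Cyp2c55, which a mean of at least 50 removes. The number of Cyp2 genes past the threshold was 5 in the analysis reported, 3 with a mean of at least 50, 0 in limma without the intensity trend, and 0 with the marker covariate. With a mean of at least 50, Cyp2c55 was not tested and Cyp2g1 did not pass. Leaving out 1 library gave 1 to 5, and without Control replicate 1 the 4 included Cyp2a4 and Cyp2c39, which rose. Over all genes, 296 became 458 with equal library sums (328 higher and 130 lower, against 162 and 134), 25 without the trend, 841 with library weights, 1364 with DESeq2 and 2 with the marker covariate, and 27 to 792 with 1 library left out. The cause was not tested.

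Gata4 passed with equal library sums (log2 fold change 0.52), library weights (0.48) and DESeq2 (0.47). The log2 ratio of the Cyp2e sum was 0.21 with equal library sums against 0.16, and that of the Cyp2j sum was -0.0090 with equal library sums and -0.024 with quantile normalisation against -0.06. Single alternatives were computed for the members given by library, and not for the other 10 tested members. With equal library sums, 20 of the 34 tested members had a negative log2 fold change, against 22. Among the members given by library, those whose direction turned were all short of the threshold. Cyp2b9 went to -9.21 with the marker covariate and ranged from -0.98 to 3.23 with 1 library left out, below 0 without Control replicate 1 (-0.53), Control replicate 3 (-0.21) or Gata4LKO replicate 1. The covariate also moved Cyp2a5 to -1.58, Cyp2a22 to -2.69 and Cyp2c38 to 0.07. Cyp2c68 went to 0.0105 with the covariate and ranged from -0.41 to 0.079 with 1 library left out, above 0 without Gata4LKO replicate 1. The others among them were Cyp2j5 (0.0081 with equal library sums), Cyp2r1 (0.20 with the covariate), and Cyp2u1, which ranged from -0.087 to 0.38 with 1 library left out and was below 0 without Control replicate 2 or Gata4LKO replicate 2 (-0.011).

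No paired analysis was possible because the replicate numbers follow accession order and the mouse numbers in the titles differ between all libraries. With 3 mice a group, depth limits the low genes, such as Cyp2c55 with 8 reads in 3 libraries.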

Other observations

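Genes with Cyp2 symbols outside the protein-coding rule included transcribed pseudogenes of the Cyp2d cluster. Cyp2d37-ps averaged 4426 normalised reads over the 6 libraries and Cyp2d38-ps 1431, above several protein-coding members. Cyp2d41-ps had 56.6, 34.3 and 33.6 normalised reads in the controls and 100.2, 125 and 85.0 in Gata4LKO replicates 1, 2 and 3, with a log2 fold change of 1.32 that missed the threshold (limma adjusted p = 0.0535). Cyp2c53-ps, which holds 4.09% of the 50-base stretches of Cyp2c29, had 31.9, 37.4 and 15.9 and then 20.5, 4.02 and 0.94 (log2 fold change -2.22, limma adjusted p = 0.174).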
